A study of Mus musculus with 12 samples.

Results

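Complex I, the NADH:ubiquinone oxidoreductase of the inner mitochondrial membrane, was followed here through the 46 genes whose symbols begin with Nduf, out of 23163 gene symbols in the count table. No symbol with a pseudogene suffix entered, and all 46 genes passed the filter on low counts in every comparison. They comprise 36 nuclear-encoded subunits, the paired genes Ndufa4 and Ndufa4l2, and 8 assembly factors (Ndufaf1 to Ndufaf8). Ndufa4 was long counted as a complex I subunit and is now placed with complex IV, and Ndufa4l2 is its paralog. Ndufb1 was not analysed here.

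The libraries come from 2 fat depots, brown adipose tissue (BAT) and the white adipose tissue under the skin (sWAT), of male C57Bl/6 wild-type mice aged 8 to 12 weeks. Of the 20 mice, 10 were kept at 30 °C (thermoneutral, where a mouse needs no extra heat production) and 10 at 4 °C (cold), each for 72 hours. The 4 groups, BAT thermoneutral, BAT cold, sWAT thermoneutral and sWAT cold, hold 3 libraries each. The labels do not say whether the libraries came from single or pooled animals, so the p-values measure the spread between these libraries, which may be partly technical.

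Complex I passes electrons from NADH to ubiquinone and pumps protons across the inner membrane. Its matrix arm holds the N module, which binds NADH, and the Q module, which reduces ubiquinone. Its membrane arm is built around 7 subunits encoded by mitochondrial DNA, and accessory subunits from nuclear genes surround both arms. In brown fat the proton gradient made by the respiratory chain is dissipated as heat by uncoupling protein 1, and white fat in the cold can gain cells with the same machinery.

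Total counts ran from 27117934 to 56243016 per library. The 3 sWAT thermoneutral libraries stood apart from the other 9. The 13 mitochondrially encoded genes took 0.181% to 0.307% of their counts against 17.6% to 53.8% elsewhere, and 83 ribosomal protein genes took 6.96% to 7.95% against 0.320% to 1.76%. Their log2 CPM (CPM are a gene's counts scaled to a common library size, with TMM factors over the 12 libraries) also rose most with GC content, by 1.08 to 1.67 per 10 percentage points with length in the model, against -0.43 to 0.56 elsewhere. The lowest of these slopes, -0.43 and -0.21, belonged to BAT cold library 3 and sWAT cold library 1. Summed over 12 brown and beige adipocyte markers, levels were 26097 to 29814 CPM in BAT cold, 6473 to 7197 CPM in BAT thermoneutral, 4672 to 17736 CPM in sWAT cold and 287 to 1221 CPM in sWAT thermoneutral, and none of the 12 was at 0 throughout a group. Because this is bulk tissue, fewer cells of a type and less RNA per cell cannot be told apart.

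Summed over the 38 genes that are not assembly factors, the 3 BAT thermoneutral libraries held 14440, 14551 and 11322 CPM and the BAT cold libraries 15533, 15058 and 7318 CPM. The sWAT thermoneutral libraries held 6991, 7169 and 4604 CPM, and the sWAT cold libraries 3849, 13317 and 11432 CPM. In both cold groups 1 library, BAT cold library 3 and sWAT cold library 1, was far below its 2 companions, so the summed levels of cold and thermoneutral libraries overlapped in each tissue.

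Divided by transcript length, subunit levels in BAT cold ran from 96.0 CPM per kb for Ndufb2 to 1050 CPM per kb for Ndufb8, with a median of 307 over the 36 subunits. The 8 assembly factors, which help build the complex without remaining in it, ran from 9.91 to 46.3 CPM per kb, with a median of 18.3. All 8 lay below the lowest subunit in BAT cold, and the same held in BAT thermoneutral and sWAT cold. In sWAT thermoneutral the lowest subunit, Ndufa5, was at 10.9 CPM per kb, below the highest assembly factor, Ndufaf8, at 41.5 CPM per kb.

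**Figure D1:**
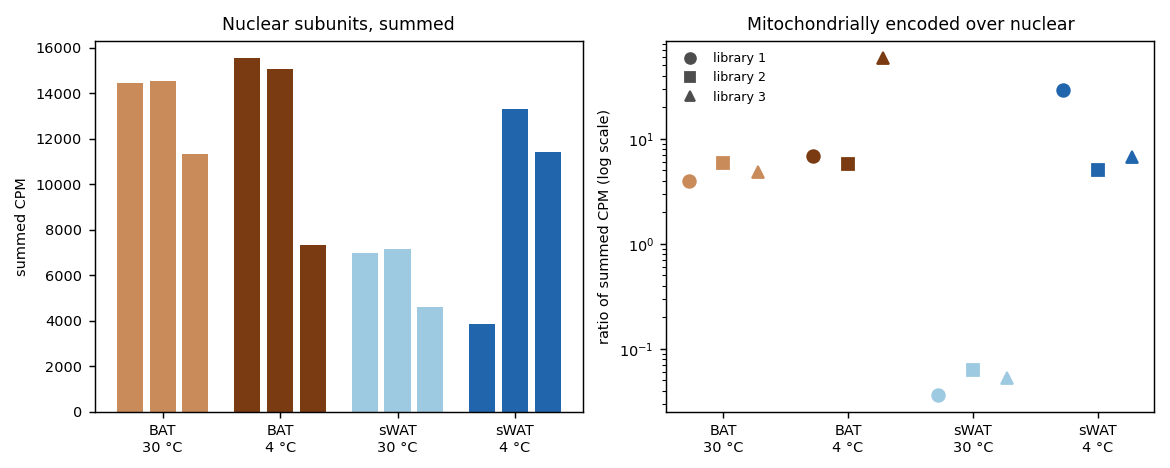
Left, summed CPM of the 38 nuclear genes other than assembly factors in each of the 12 libraries (1 bar per library, in the order 1, 2, 3 within a group). Right, summed CPM of the 7 mitochondrially encoded subunits divided by that sum, on a log scale. BAT cold library 3 and sWAT cold library 1 have the lowest nuclear sum of their groups and the highest ratio, and the 3 sWAT thermoneutral libraries lie below 0.1 on the right.

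In sWAT, 14 of the 46 genes (30.4%) were higher in cold and 1 was lower (edgeR's quasi-likelihood test, Benjamini-Hochberg adjusted p under 0.05). Over all 15731 genes tested, 25.1% were higher and 24.1% lower. The members' median log2 fold change was 0.67, against 0.00 for all genes, and 32 of 46 were positive. The 14 genes came from every module of the complex, and the largest increases were those of Ndufa5, Ndufv2, Ndufs1, Ndufaf4, Ndufb3 and Ndufaf1. Over the 46 genes, which share their libraries, the log2 fold change fell with the GC content of the transcript (Spearman correlation -0.47). For 12 genes every cold library was above every thermoneutral library and for 5 every cold library was below, where 30.1% and 30.5% of all genes showed no overlap in those directions.

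Of the N module's core, Ndufs1 and Ndufv2 rose and Ndufv1 did not pass the test. Ndufs1, the largest core subunit and a carrier of iron-sulfur clusters, was at 39.5, 45.5 and 41.5 CPM in sWAT thermoneutral libraries 1, 2 and 3 and at 233, 365 and 433 CPM in the cold ones, in the same order. The groups were far apart, with a log2 fold change of 3.02 ± 0.32 (SE, n = 3 and 3, edgeR adjusted p = 0.00037). Ndufv2, which holds an iron-sulfur cluster next to the flavin site, went from 71.3, 58.8 and 27.9 CPM to 162, 673 and 553 CPM. Cold library 1 was the lowest of its group and still above every thermoneutral library, and the log2 fold change was 3.12 ± 0.58 (edgeR adjusted p = 0.00279). Ndufv1, the flavin- and NADH-binding subunit, was at 356, 245 and 167 CPM and at 143, 378 and 364 CPM. Here the groups overlapped, with cold library 1 below all thermoneutral libraries (log2 fold change 0.19 ± 0.43, edgeR adjusted p = 0.738).

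Among the 8 accessory subunits of the N module, Ndufa12 (1.99 ± 0.43, edgeR adjusted p = 0.00578) and Ndufs4 (2.17 ± 0.59, edgeR adjusted p = 0.015) passed the test as log2 fold changes. Both sit where the N and Q modules meet, and Ndufs4 is among the genes mutated in Leigh syndrome. The other 6 ran from -1.13 for Ndufa2 to 1.32 for Ndufs6. Ndufab1, the mitochondrial acyl carrier protein, which also serves fatty acid synthesis in the organelle, was at 350, 552 and 289 CPM at 30 °C and at 73.2, 450 and 451 CPM at 4 °C. Its groups overlapped, with a log2 fold change of -0.30 ± 0.60 (edgeR adjusted p = 0.698).

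In the Q module, Ndufs8 was the 1 core subunit of 4 that rose, from 108, 84.3 and 61.6 CPM to 70.6, 407 and 257 CPM. Its cold library 1 lay within the thermoneutral range, so the groups overlapped, and the log2 fold change of 1.51 ± 0.55 passed narrowly (edgeR adjusted p = 0.0467). Among the core subunits that did not pass, Ndufs3 had a log2 fold change of 0.00 ± 0.48 and Ndufs7 of -0.14 ± 0.58, with edgeR adjusted p-values of 0.994 and 0.857. Both accessory Q subunits rose. Ndufa5 was at 19.2, 5.80 and 3.70 CPM in thermoneutral and 61.8, 181 and 182 CPM in cold libraries, and no libraries overlapped. Its log2 fold change of 3.87 ± 0.69 (edgeR adjusted p = 0.00245) was the largest of the 46. Ndufa9, which helps hold the matrix arm to the membrane arm, rose by 1.39 ± 0.37 on the log2 scale (edgeR adjusted p = 0.0138).

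In the membrane arm 3 of 19 accessory subunits rose, beside 7 of 17 subunits of the matrix arm, where 25.1% of all genes were higher. With GC and length trends removed the counts were 10 of 19 and 9 of 17, where 20.9% of all genes were higher. The difference between the arms was not tested. Of 9 accessory subunits of the proximal part, Ndufa10 (log2 fold change 1.96 ± 0.44) and Ndufs5 (1.70 ± 0.49) rose, with edgeR adjusted p-values of 0.00659 and 0.02. Of 10 in the distal part, only Ndufb3 passed the test. It stood at 86.7, 16.6 and 20.4 CPM in thermoneutral and at 183, 361 and 290 CPM in cold libraries, without overlap (log2 fold change 2.73 ± 0.65, edgeR adjusted p = 0.00825). Thermoneutral library 1 was well above its companions. The other 7 proximal and 9 distal subunits ran from -1.31 for Ndufc1 to 1.51 for Ndufb9.

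Of the 8 assembly factors, Ndufaf4, Ndufaf1, Ndufaf7 and Ndufaf6 rose and Ndufaf3 fell. Ndufaf1, which acts in the early membrane arm intermediate together with Ecsit and Acad9, was at 3.56, 5.99 and 4.55 CPM in thermoneutral and at 24.5, 23.0 and 30.0 CPM in cold libraries. Its cold libraries were close together, library 1 included, and its log2 fold change was 2.46 ± 0.28 (edgeR adjusted p = 0.000448). Ndufaf4 went from 7.81, 8.86 and 3.91 CPM to 48.9, 40.4 and 54.0 CPM, a log2 fold change of 2.80 ± 0.34 (edgeR adjusted p = 0.000543). These 2 genes showed the smallest departure of cold library 1 from its companions. Ndufaf7, a protein methyltransferase, had a log2 fold change of 1.78 ± 0.34 and Ndufaf6 of 1.14 ± 0.37, with edgeR adjusted p-values of 0.00328 and 0.0301.

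Ndufaf3, which works with Ndufaf4 in assembly of the Q module, moved the other way. It was at 33.5, 38.5 and 25.8 CPM in thermoneutral and at 5.08, 19.6 and 14.9 CPM in cold libraries, without overlap, and its log2 fold change was -1.32 ± 0.43 (edgeR adjusted p = 0.0324). Its call was lost when sWAT cold library 3 or sWAT thermoneutral library 1 or 2 was left out, and with either GC correction. Exons of Ndufaf3 overlap those of Impdh2 on the opposite strand, and exons of Ndufs1 overlap those of Eef1b2. The strand setting of the counting is not given in the sources used here, so reads of such pairs cannot be told apart.

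**Figure D2:**
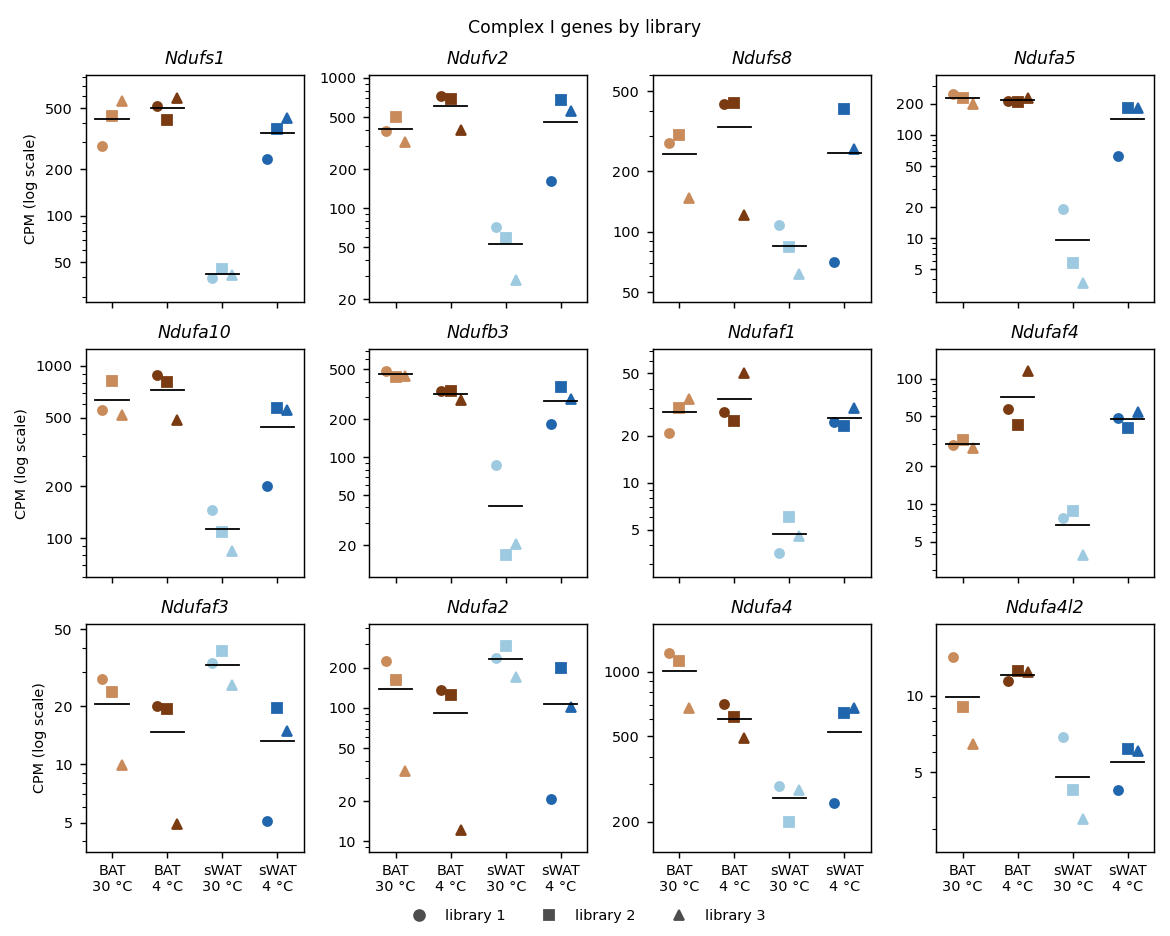
CPM (log scale) of 12 complex I genes in each library, by tissue and temperature. Symbols mark library 1, 2 and 3 and black lines the group mean. The sWAT thermoneutral libraries are lowest for Ndufs1, Ndufv2, Ndufa5, Ndufa10, Ndufb3, Ndufaf1 and Ndufaf4 and highest or near highest for Ndufaf3 and Ndufa2, and BAT cold library 3 and sWAT cold library 1 are the lowest points for Ndufa2 and Ndufaf3.

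Promoter windows from 250 bases before to 50 bases after each start in RefSeq (GRCm38.p6) were searched for short motifs. The motifs were those of 4 factors linked to mitochondrial genes. Windows were at hand for 40 of the 46 members. Ndufa2, Ndufa4l2, Ndufaf6, Ndufb9 and Ndufs1 were among those with none. Both strands were searched, and none of the motifs contains another. AANATGGC, the core of the YY1 motif, was in 14 of 40 members (35.0%) and in 6.96% of 27025 genes. GCGCATGC, from the NRF1 motif, was in 5 (12.5%) and in 3.05% of genes. AAGGTCA, which estrogen-related receptors (ERR) and other nuclear receptors bind, was in 3 (7.5%) and in 5.38%, and CCGGAAGT, from the GABPA motif, in 1 (2.5%) and in 4.31%. Of the 15 YY1 matches, 13 read along the gene's strand and 8 held the annotated start codon of the gene.

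Of the 13 members with a window that were called in sWAT, 6 held at least 1 motif, as did 17 of the 27 that were not called. YY1 matches were in 4 of the 13 and 10 of the 27. The called members with a match are printed here with the motif in capitals and up to 11 bases on each side. Each stretch is read 5′ to 3′ along the strand that spells the motif. Some hold YY1, others NRF1 or ERR, so no motif is common to all of them. Ndufaf3 fell in sWAT cold and the others rose.
Ndufa9 (YY1), chr6:126849097-126849126, minus strand: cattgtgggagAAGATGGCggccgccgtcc
Ndufs4 (YY1), chr13:114388045-114388070, minus strand: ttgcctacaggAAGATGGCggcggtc
Ndufs8 (YY1), chr19:3912921-3912950, minus strand: ctctctgatacAACATGGCagctccctaca
Ndufaf3 (YY1), chr9:108567495-108567524, plus strand: ggtttctccttAAAATGGCtccaagtctgg
Ndufaf4 (NRF1), chr4:24897959-24897988, plus strand: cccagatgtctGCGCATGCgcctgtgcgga
Ndufaf4 (NRF1), chr4:24898073-24898102, plus strand: gcccctggtgtGCGCATGCtccgtgcgtac
Ndufs5 (ERR), chr4:123718397-123718425, plus strand: gctacttgagcAAGGTCAcactcgagaaa
In Ndufa9 and Ndufs4 the letters shown include the start codon, ATG, inside the motif. In Ndufs8 and Ndufaf3 the match lies before the start, from -165 to -158 and from -77 to -70, and in Ndufs5 from -228 to -222. Ndufaf4 held 2 separate NRF1 matches, 1 before and 1 just after its start. Ndufa5, Ndufaf1, Ndufv2 and Ndufb3, which had some of the largest increases, held none of the 4 motifs in their windows. A match describes the letters only.

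Of the 15 calls, 9 held whichever single library was left out: Ndufs1, Ndufv2, Ndufa12, Ndufa5, Ndufa10, Ndufb3, Ndufaf1, Ndufaf4 and Ndufaf7. Under all 14 alternatives 6 held. With a GC correction Ndufv2 came to 1.84 (edgeR adjusted p = 0.0548), Ndufb3 to 1.89 (edgeR adjusted p = 0.0636) and Ndufaf4 to 0.92 (edgeR adjusted p = 0.0849). The call of Ndufs8 was lost without any one library other than sWAT cold library 1, that of Ndufaf6 without sWAT cold library 2 or 3 or thermoneutral library 1 or 3, that of Ndufs4 without thermoneutral library 2 or 3, that of Ndufs5 without cold library 3 or thermoneutral library 2, and that of Ndufa9 without thermoneutral library 2. Without sWAT cold library 1, 24 of the 46 genes were higher (52.2%) and 4 lower, where 26.3% of 16090 genes were higher and 27.9% lower, and all 15 calls of the whole set were among these 28. Over all members, that library was below the mean of its companions for 45 of 46 genes, with a median log2 ratio of -1.59, from -3.85 for Ndufaf8 to 0.05 for Ndufaf4. The median over 15927 genes was 0.01. With each library's trend on GC content and transcript length removed, 23 of 46 were higher and 0 lower, against 20.9% of all genes higher, and 12 of those 23 were called without the correction too. Ndufs6, Ndufa11 and Ndufb9 were among those gained, at log2 fold changes of 2.06, 1.53 and 2.09, and Ndufaf4 and Ndufs4 were among those lost. These members were singled out after their values were seen. Complex I transcripts are short, with a median of 891.5 bases (315 to 3632) against 2788 for all genes tested.

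In sWAT, markers of skeletal muscle moved in cold the same way as most complex I genes. Of 16 muscle markers, 11 rose in sWAT cold and 0 fell, with summed levels of 9685, 25916 and 25433 CPM at 4 °C (libraries 1, 2 and 3) and 2379, 6062 and 147 CPM at 30 °C. None of the 16 was at 0 throughout a group. Of 15 lymphocyte markers 8 fell, from a range of 1121 to 1679 CPM to a range of 355 to 1183 CPM, and of 11 brown and beige markers tested 8 rose and 1 fell. Of 10 macrophage markers 5 fell and 1 rose (980 to 1547 CPM at 30 °C and 294 to 445 CPM at 4 °C), of 9 white adipocyte markers 3 fell and 1 rose (3593 to 4483 CPM and 10198 to 16081 CPM), and of 6 endothelial markers 3 rose and 2 fell (325 to 484 CPM and 411 to 539 CPM). Among the sWAT cold libraries, library 1, low in most members, held the least of the brown and beige markers. It was at 4672 CPM, against 17736 and 15690 CPM in libraries 2 and 3. Lymphocyte markers were highest there, at 1183 CPM against 404 and 355 CPM. The part of these tissues' other cells in the complex I result was not tested.

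**Figure D3:**
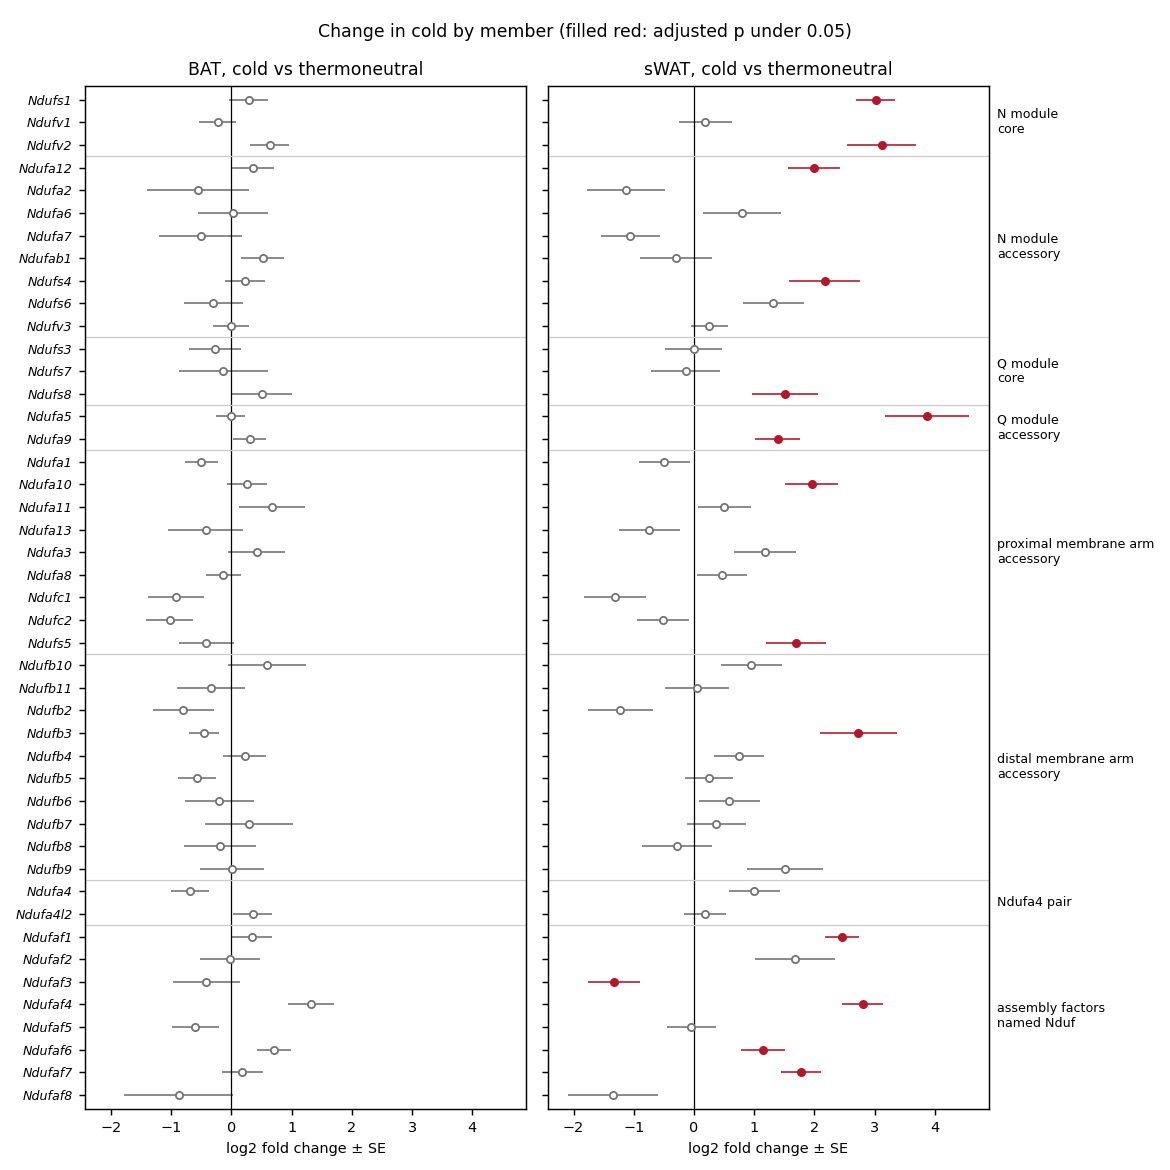
Log2 fold change (cold over thermoneutral) with its SE for 45 of the 46 genes in BAT (left) and sWAT (right), grouped by module. Filled red points passed an adjusted p of 0.05: 0 in BAT, and in sWAT 14 to the right of 0 and Ndufaf3 to the left.

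In BAT, none of the 46 genes passed the test between cold and thermoneutral libraries in edgeR's quasi-likelihood fit on the group alone, where 6.82% of 14612 genes were higher and 5.34% lower. At an unadjusted p under 0.05 there were 3 of the 46, beside 4271 of all 14612 genes. DESeq2 called 1 higher and 0 lower, beside 10.4% and 8.77% of all genes. With the experiment number of the titles added as a block, edgeR called 0 higher and 4 lower (8.7%: Ndufc1, Ndufc2, Ndufb2 and Ndufaf8), beside 10.2% and 8.94% of all genes. The members' median log2 fold change was -0.02, against -0.04 for all genes, and the range was -1.02 to 1.32. Every cold library was above every thermoneutral library for 2 genes, Ndufaf4 and Ndufaf6, and below for 3, Ndufa1, Ndufb3 and Ndufc2. The shares of all genes without overlap were 16.0% and 19.7%.

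The largest BAT value belonged to Ndufaf4, at 29.4, 32.6 and 27.8 CPM in thermoneutral and 57.3, 43.0 and 116 CPM in cold libraries. Cold library 3 was the highest by far, and the log2 fold change was 1.32 ± 0.38 (edgeR adjusted p = 0.0556). The lowest belonged to Ndufc2, a membrane arm subunit, at 291, 356 and 175 CPM in thermoneutral and 164, 150 and 75.7 CPM in cold libraries (log2 fold change -1.02 ± 0.39, edgeR adjusted p = 0.12). Its groups did not overlap, and library 3 was the lowest in both. The 7 nuclear core subunits ran from -0.28 for Ndufs3 to 0.63 for Ndufv2.

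The BAT libraries numbered 3 departed from their companions across most members. BAT cold library 3 was below the mean of libraries 1 and 2 for 40 of 46 genes, with a median log2 ratio of -0.97, from -3.41 for Ndufa2 to 1.20 for Ndufaf4, while the median over all genes was 0.00. Ndufa2, a small subunit of the N module, was at 136, 124 and 12.2 CPM in BAT cold libraries 1, 2 and 3. The ratio fell with the GC content of the transcript, with a Spearman correlation of -0.58 over the 46 genes, which share their libraries, and of -0.71 over all genes. BAT thermoneutral library 3 was below its companions for 33 of 46, with a median of -0.68.

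Without both libraries, 10 members were higher in BAT cold and 7 lower (21.7% and 15.2%), beside 22.4% and 22.3% of 14566 genes, so the members' shares were at or under those of all genes. With 2 libraries in each group, the highest was Ndufb10, a distal membrane arm subunit, at 1.30 ± 0.21 (log2 fold change, edgeR adjusted p = 0.0006). Ndufaf2, Ndufaf6, Ndufa12, Ndufa11, Ndufaf4, Ndufab1, Ndufv2, Ndufaf7 and Ndufs8 followed, from 0.98 to 0.65. The lowest were Ndufc2 at -0.99 ± 0.21 and Ndufc1 at -0.95 ± 0.20, partners in the membrane arm, with edgeR adjusted p-values of 0.00283 and 0.00275. Ndufaf8, Ndufb2, Ndufa4, Ndufb5 and Ndufaf5 lay between -0.86 and -0.58. Of the 17 members of the N and Q modules only 4 were called, all higher. The calls in the proximal and distal membrane arm and among the assembly factors went in both directions. A difference between modules was not tested.

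**Figure D4:**
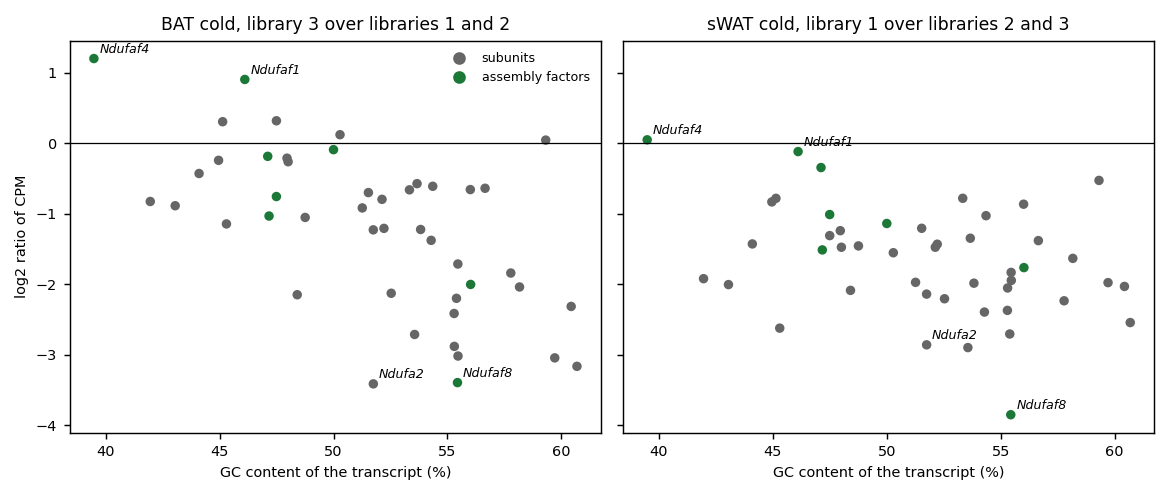
Log2 ratio of CPM in BAT cold library 3 over the mean of libraries 1 and 2 (left) and in sWAT cold library 1 over the mean of libraries 2 and 3 (right) for the 46 genes, against the GC content of each transcript in percent. Grey points are subunits (the Ndufa4 pair included) and green points assembly factors. Most points lie below 0 in both panels, and on the left the Spearman correlation with GC content is -0.58.

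At thermoneutrality, 25 of the 46 genes (54.3%) were higher in BAT than in sWAT and 0 were lower (edgeR, all 12 libraries in 1 fit), where 29.9% of 16365 genes were higher and 28.8% lower. At an unadjusted p under 0.05 there were 26 higher and 0 lower, beside 10363 of all 16365 genes in either direction. DESeq2 called 25 higher and 0 lower, beside 29.6% and 31.5% of all genes. The members' median was 1.09 on the log2 scale, against 0.03 for all genes. All 3 core subunits of the N module were higher, at log2 differences of 3.34 ± 0.34 for Ndufs1 (edgeR adjusted p = 7.33e-06), 2.94 ± 0.52 for Ndufv2 and 1.01 ± 0.41 for Ndufv1 (edgeR adjusted p = 0.0462). The call of Ndufv1 was lost in 9 of 21 alternatives, among them without any one of 7 libraries: BAT cold 1 or 2, BAT thermoneutral 1 or 2, sWAT cold 3, or sWAT thermoneutral 2 or 3. In the Q module, Ndufa5 had the largest difference of all, 4.57 ± 0.60, from 249, 230 and 200 CPM in BAT against 19.2, 5.80 and 3.70 CPM in sWAT. Ndufb3 (3.47 ± 0.56), Ndufs5 (2.92 ± 0.55) and Ndufaf1 (2.59 ± 0.33) completed the 6 largest. Over the 46 genes the log2 difference fell with the GC content of the transcript (Spearman correlation -0.49). Of the 21 genes that did not pass, 8 were below 0, down to -0.73 for Ndufa2. Of the 25 calls, 16 held whichever single library was left out. The comparison shares its sWAT libraries with the response of sWAT to cold. With GC and length trends removed, 29 members were higher (63.0%), against 28.9% of all genes. Markers of other cells differed in the same contrast. All 15 lymphocyte markers were lower in BAT, with sums of 17.8 to 25.6 CPM against 1121 to 1679 CPM, and 8 of 10 macrophage markers were lower, with sums of 116 to 179 CPM against 980 to 1547 CPM. Of 16 skeletal muscle markers 10 were higher in BAT, with sums of 4668 to 14075 CPM against 147 to 6062 CPM, and of 12 brown and beige markers 9 were higher and 2 lower. Their part in the complex I difference was not tested.

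In the cold, 1 gene passed the test between the tissues, Ndufa4l2, and 0 were lower in BAT, beside 1.19% of all genes higher and 11.1% lower. Ndufa4l2 was at 11.4, 12.6 and 12.4 CPM in BAT cold and 4.24, 6.17 and 6.05 CPM in sWAT cold, without overlap (log2 difference 1.15 ± 0.35, edgeR adjusted p = 0.0462). The adjusted p is close to the threshold, and the call was lost without BAT cold library 2, sWAT cold library 1 or 3, or sWAT thermoneutral library 2. Exons of Ndufa4l2 overlap those of Shmt2 on the opposite strand. The log2 difference was above 0 for 42 of the 46 genes, beside 7801 of all 16365, with a median of 0.40 (-0.03 for all genes). It ran from -0.28 for Ndufaf8 to 1.15. Of 16 skeletal muscle markers, 3 were above 0 and 13 below in the same contrast, and 0 were called. Without sWAT cold library 1 the median log2 difference was 0.19 for the members and 0.16 for all genes. These medians were 0.79 and 0.06 without BAT cold library 3. They were 0.27 and -0.02 without both BAT libraries numbered 3 and sWAT cold library 1, an alternative chosen after seeing the data. The members' offset thus varied with the libraries left out. With GC and length trends removed, 7 members were higher (15.2%), beside 7.51% of all genes.

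The relation of Ndufa4 to Ndufa4l2 was followed as a ratio of CPM. Ndufa4l2 made 1.17%, 0.807% and 0.950% of the Ndufa4 level in BAT thermoneutral libraries 1, 2 and 3 and 1.62%, 2.05% and 2.53% in BAT cold libraries, without overlap. In sWAT it made 2.35%, 2.14% and 1.16% in thermoneutral and 1.73%, 0.961% and 0.891% in cold libraries, which overlapped. The GC content of the 2 transcripts differs, and with GC and length trends removed the sWAT log2 fold changes were 1.25 ± 0.30 for Ndufa4l2 (edgeR adjusted p = 0.0112) and 0.34 ± 0.38 for Ndufa4 (edgeR adjusted p = 0.49), so the direction of the ratio in sWAT turned with that correction. Ndufa4 itself was at 1217, 1124 and 678 CPM in BAT thermoneutral, 704, 613 and 490 CPM in BAT cold, 292, 199 and 282 CPM in sWAT thermoneutral and 246, 642 and 679 CPM in sWAT cold. Its log2 fold change in cold was -0.68 ± 0.32 in BAT and 1.00 ± 0.42 in sWAT, with edgeR adjusted p-values of 0.19 and 0.0755.

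The response to cold was then compared between the tissues as the log2 fold change in sWAT minus that in BAT, in the fit over 12 libraries. It was larger in sWAT for 11 of 46 genes (23.9%) and smaller for 0, where 17.3% of 16365 genes were called larger and 7.85% smaller. The median of all genes was 0.12 here and -0.03 with median-of-ratios (RLE) scaling, under which 7 members (15.2%) were called, beside 14.8% of all genes. Calls over all genes split 68.7% larger with TMM scaling, 58.4% with RLE and 52.2% with a GC correction. The largest differences were those of Ndufa5 (3.96 ± 0.76, edgeR adjusted p = 0.00353), Ndufb3 (3.27 ± 0.73, 0.00742), Ndufs1 (2.79 ± 0.45, 0.0016), Ndufv2 (2.55 ± 0.69, 0.0179), Ndufs5 (2.17 ± 0.73, 0.0442) and Ndufaf1 (2.17 ± 0.45, 0.00493). Over the 46 genes the difference of responses fell with the GC content of the transcript (Spearman correlation -0.55). Ndufs1, Ndufa5 and Ndufaf1 passed under each of the 22 alternatives run, while Ndufs5 and Ndufaf4 did not pass in 15, Ndufa12 in 14, Ndufa4 and Ndufaf7 in 13 and Ndufa10 in 12 of them. Under the 3 fits with a GC correction Ndufv2 came to 0.80 to 0.96 (edgeR adjusted p 0.408 to 0.508) and Ndufb3 to 1.85 to 2.16 (edgeR adjusted p 0.0648 to 0.0875), and Ndufaf4 turned from 1.53 to between -0.45 and -0.32 (edgeR adjusted p 0.502 to 0.67). Leaving out 1 library at a time gave 4 to 10 calls (8.7% to 21.7%), beside 8.73% to 17.3% of all genes. The members' share was under that of all genes in some of these fits, such as 8.7% beside 13.1% without sWAT cold library 2. In others it was above, such as 21.7% beside 12.9% without sWAT cold library 1. Leaving out both BAT libraries numbered 3 together with sWAT cold library 1, chosen after seeing the data, gave 19 (41.3%), beside 21.2% of all genes. Of these 19 members, 10 were among the 11.

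The 7 subunits encoded in mitochondrial DNA, which form the core of the membrane arm, were measured beside the nuclear ones. All 7 rose in sWAT cold, with log2 fold changes of 7.77 to 8.44, and 0 of 7 passed in BAT, where they ran from 0.11 to 2.80. Their summed level was 254, 454 and 244 CPM in sWAT thermoneutral libraries, while in the other 9 it ran from 54227 to 433847 CPM. Divided by the summed CPM of the 38 nuclear genes, it came to 0.0364, 0.0633 and 0.0529 in sWAT thermoneutral, 29.2, 4.99 and 6.76 in sWAT cold, 4.00, 5.86 and 4.79 in BAT thermoneutral and 6.81, 5.75 and 59.3 in BAT cold libraries. The highest ratios, 59.3 and 29.2, belonged to the same libraries, BAT cold 3 and sWAT cold 1, that were low in nuclear members. The low share of mitochondrial counts in all 3 sWAT thermoneutral libraries coincides with that group, so a difference in library composition and an effect of temperature cannot be told apart for these genes.

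Of 8 complex I assembly factors with other names, 4 rose in sWAT cold (50.0%), none fell, and 4 were higher in BAT at thermoneutrality (50.0%). The shares of all genes called higher were 25.1% and 29.9%. Tmem126b, a partner of Ndufaf1 in the same intermediate, had a log2 fold change of 1.99 in sWAT (edgeR adjusted p = 0.000478), and Acad9 of 1.12 (edgeR adjusted p = 0.00547). In BAT 0 of 8 passed, where 6.82% of all genes were higher and 5.34% lower. Among the other respiratory complexes, 5 of 8 complex II genes, 4 of 9 nuclear complex III genes, 4 of 13 nuclear complex IV genes and 6 of 16 ATP synthase genes rose in sWAT cold. The shares were 62.5%, 44.4%, 30.8% and 37.5%, beside 25.1% of all genes. Of these lists, only ATP synthase held genes that fell, with 2. In BAT 0 genes of these 4 lists passed. Among 12 regulators of mitochondrial genes, 8 rose (66.7%) and 2 fell in sWAT, beside 25.1% and 24.1% of all genes. The list was led by Esrrg (4.50, edgeR adjusted p = 0.000174) and Ppargc1a (5.98, edgeR adjusted p = 0.000198), a nuclear receptor and a coactivator of nuclear receptors. In BAT, 3 of the 12 rose (25.0%, beside 6.82% of all genes), Ppargc1a (2.43, edgeR adjusted p = 0.0202) and Esrrb (4.04, edgeR adjusted p = 0.00169) among them.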

How the data were processed

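RNA sequencing counts of 12 mouse libraries were used as deposited. The authors deposited whole-number counts per gene symbol. Per the submitters' processing notes they used STAR and DESeq2 with the mm10 build, with no version stated. For the counting tool and strand setting, nothing is given in the sources used here. The labels describe 1000 ng of RNA per library, a TruSeq total RNA protocol and reads of 100 nt in pairs. 2 columns, BAT cold 1 and sWAT cold 2, carry the word "Merged" in their names, with no word on what was merged.

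Genes were kept by filterByExpr, scaled by TMM and tested with edgeR 4.0.16 (quasi-likelihood, robust=TRUE, R 4.3.3, limma 3.58.1), with Benjamini-Hochberg adjustment over all genes tested and a threshold of 0.05. Each tissue was fitted alone for cold against thermoneutral, and all 12 libraries together for the other comparisons. The SE is the log2 fold change divided by the square root of F. Transcript lengths, GC content and gene overlaps came from GENCODE M21 with 1 transcript per gene, for 96% of genes, and corrections used natural splines with 5 degrees of freedom. Alternatives were RLE and upper quartile scaling, no filter, DESeq2 1.42.0, a replicate block, GC and length corrections and libraries left out. Scripts were tested on simulated data. No 2 libraries were duplicates.

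The members and lists were chosen with earlier results of these data known. The named genes were the 7 nuclear core subunits, Ndufa4, Ndufa4l2, Ndufab1, Ndufaf1 and the 6 largest changes each way past the threshold (or the 4 largest each way where fewer passed). Some of these genes' values are left out of the text and figures. Other members were named after their values were seen.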

Additional observations from a re-analysis of the deposited data

Results flagged for a closer look

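The response to cold differed between sWAT and BAT for 11 complex I genes by the test of the difference itself (edgeR, Benjamini-Hochberg adjusted over 16365 genes). These were 23.9% of the members, beside 17.3% of all genes called larger. With the replicate block the shares were 13.0% and 17.4%, and without both BAT libraries numbered 3 they were 15.2% and 19.0%. Without these and sWAT cold library 1 they were 41.3% and 21.2%. The difference in log2 fold change was 3.96 for Ndufa5, 3.27 for Ndufb3, 2.79 for Ndufs1, 2.55 for Ndufv2, 2.17 for Ndufs5, 2.17 for Ndufaf1, 1.77 for Ndufa10, 1.76 for Ndufa4, 1.71 for Ndufa12, 1.65 for Ndufaf7 and 1.53 for Ndufaf4. For Ndufa4, Ndufb3, Ndufs5 and Ndufa5 the fitted log2 fold change was below 0 in BAT and above 0 in sWAT, and for the other 7 it was above 0 in both. None of the 11 passed the test in BAT in the fit on the group alone, where Ndufa5 was at -0.01 ± 0.24. Ndufa4 did not pass in sWAT either. Ndufaf4 had log2 fold changes of 1.32 in BAT and 2.80 in sWAT. Of the 11 calls, 3 (Ndufs1, Ndufa5 and Ndufaf1) held under all 22 alternatives and 4 whichever single library was left out. Ndufaf4, Ndufs5, Ndufa12, Ndufa4, Ndufaf7 and Ndufa10 were each lost in 12 to 15 alternatives, 9 or 10 of them leaving out 1 library. All 11 comparisons rest on the sWAT thermoneutral libraries, whose mitochondrial and ribosomal protein shares differed from those of the other 9. The part of that composition in the difference was not tested.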

How the results depend on the processing

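Of 2169 values of named genes under alternatives, 4 changed direction with a call on one side. Ndufaf4 in the difference of responses, 1.53, became -0.45 with a GC correction, -0.36 with GC and length and -0.32 with these and the replicate block, and Ndufaf2 in BAT, -0.02 and not called, became 0.98 and called without both BAT libraries numbered 3. The count of members higher in BAT cold, 0 of 46, became 1 with no filter, 1 with DESeq2, 1 with a GC correction, 3 with GC and length, 10 without both BAT libraries numbered 3, and 0 to 1 without single libraries. The counts of 1, 3 and 10 are 2.17%, 6.52% and 21.7% of the members. In the same order, 4.89%, 10.4%, 10.7%, 10.8%, 22.4% and 2.03% to 9.17% of all genes were higher. The count lower became 7 without both libraries (15.2%, beside 22.3% of all genes) and stayed at 0 without single ones (0.973% to 7.35% of all genes). In sWAT the 14 higher became 23 with GC and length (50.0%, beside 20.9% of all genes). They became 10 to 24 without single libraries (21.7% to 52.2%, beside 19.1% to 26.3% of all genes). The 1 lower became 2 with DESeq2, 0 with either correction and 0 to 4 without single libraries. Beside these, 25.3%, 22.5% to 23.4% and 16.2% to 27.9% of all genes were lower. Between the tissues at thermoneutrality the 25 calls ran from 17 to 29. The 17 (37.0%, beside 27.4% of all genes) came without sWAT thermoneutral library 3. The 29 (63.0%, beside 28.9%) came with GC and length. In the cold the 1 call became 0 with upper quartile scaling and with no filter (0.868% and 0.579% of all genes). It also became 0 without both BAT libraries numbered 3 and without these and sWAT cold library 1 (0.905% and 0.878% of all genes). The count was 7 with GC and length (15.2%, beside 7.51% of all genes) and 0 to 2 without single libraries (0.276% to 3.16% of all genes). For the difference of responses the 11 calls became 7 with RLE, 7 without both BAT libraries numbered 3, 19 without these and sWAT cold library 1 (an alternative chosen after seeing the data), and 4 to 10 without single libraries. The members' shares were 15.2%, 15.2%, 41.3% and 8.7% to 21.7%. Beside them, 14.8%, 19.0%, 21.2% and 8.73% to 17.3% of all genes were called larger. The cause was not tested. Upper quartile scaling moved the median of all genes in BAT from -0.04 to -0.20 and the share of calls that were higher from 56.0% to 41.5%. In the cold contrast that share was 9.68%, against 26.0% with DESeq2 and 40.0% with a GC correction.

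Titles number the experiments 1 to 3 within each group, and no label says what libraries of one experiment shared. Same-numbered libraries did not deviate together throughout: their correlations were 0.31, 0.067 and 0.29 between the BAT groups and -0.23, 0.19 and -0.31 between the sWAT groups, so the numbers were not taken as pairs. With the replicate block, 0 members were higher and 4 lower in BAT (10.2% and 8.94% of all genes), 11 higher in sWAT (21%), 0 in the cold contrast (1.29%) and 6 in the difference of responses (17.4%). With the replicate block and the GC and length correction together, 4 were higher and 1 lower in BAT (11.7% and 12.9%), 3 higher in the cold contrast (6.66%) and 6 in the difference (9.61%).

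Depth was at least 27117934 counts, and the limits lie in the spread between libraries: 1 library in each cold group was low in most members, and 3 libraries per group cannot show whether it or its companions are typical.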
